A study of Mus musculus with 9 samples.

Results

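The genes described here are 10 immediate-early genes, Egr1, Egr2, Egr3, Ier2, Ier3, Ier5, Nr4a1, Zfp36, Myc and Srf, taken with every probe set that the platform annotation gives that symbol alone. They were read by 15 of 45037 probe sets, and are 10 of 18193 genes with a single symbol. RNA from 9 cultures of spontaneously immortalised mouse embryonic fibroblasts, connective-tissue cells from E13.5 embryos, was hybridised to 9 Affymetrix arrays. One line was derived from knockout embryos without Suv420h1 (Kmt5b), a histone H4 methyltransferase, and was measured untransduced and with GFP, which together form the null line (2 arrays), and with a Suv420h1-GFP fusion protein (1 array), called reconstituted. The other line was wild type and carried a lentivirus for GFP or LacZ (control vector, 2 arrays), for PREX2 wt, the full-length protein (1 array), or for PREX2 cut short by a stop codon (K278*, E824* and Q1430*, truncated PREX2, 3 arrays). PREX2 activates the small GTPase Rac by exchanging its nucleotide.

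Each genotype is a single line, so genotype, line of origin and history of immortalisation cannot be told apart. No construct was repeated within a line and nothing in the labels says that cultures were separate, so a p-value here covers array-to-array spread alone, which may be technical. Of the 4 Kmt5b probe sets with a mean signal of at least 100, 1 separated knockout from the rest, at 8.85 and 17.3 without the enzyme, 150.3 after reconstitution and 118 to 182 in the wild-type line. The brightest did not, at 432 and 442 without it and 295 to 469.6 in the wild-type line, with the part of the transcript either one reads not given in the sources used here. The brighter Prex2 probe set read 452 and 677 with control vectors and 703 to 809 with PREX2 constructs. All 12 fibroblast markers gave a signal of at least 100 on some array, but Thy1 read 6.90 to 27.3 and Lum 48.6 to 75.0 in the null-derived line. In the wild-type line Lum ran from 24.0 to 525 and Dcn from 962 to 27342, both lowest on the GFP array.

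Immediate-early genes are transcribed within minutes of a growth factor or stress signal without new protein synthesis. In fibroblasts serum and growth factors act through receptor tyrosine kinases, Ras and the kinase ERK, which phosphorylates partners of SRF, the transcription factor bound at CArG boxes in many of these promoters. Their products include transcription factors of the EGR, NR4A and MYC families, regulators of survival such as IER3, and ZFP36, which shortens the life of mRNAs with AU-rich elements and so limits the response.

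Most of these genes were high in the null-derived line whatever it carried. Egr1, Egr2, Egr3, Ier2, Ier3, Nr4a1, Zfp36 and Myc rose in its 3 arrays against the 6 of the wild-type line, Ier5 fell and Srf did not pass. Among the 8 that rose, the differences ran from 19.0-fold for Egr1 to 1.88-fold for Myc. None of the 10 passed for the Suv420h1-GFP fusion against the null line, nor for full-length PREX2 or the 3 truncations pooled against control vector. Of all 19090 tested probe sets 43.4% passed between the lines. For the fusion 0 of them passed, for full-length PREX2 0 and for the pooled truncations 1, so these absences are not particular to the 10 genes. The truncations were not tested singly.

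Promoter sequences from RefSeq (build GRCm38.p6), found for 6 of the 10 genes, are shown for genes that rose (Egr2, Zfp36, Nr4a1), the one that fell (Ier5) and the one that did not pass (Srf), since several rose together. Each is the 250 bases before a transcription start, 5′ to 3′ on the gene's strand. Capitals mark CArG boxes, and TGACG on either strand, the first letters of the cyclic-AMP response element TGACGTCA.
Egr2, chr10:67537619-67537868, plus strand: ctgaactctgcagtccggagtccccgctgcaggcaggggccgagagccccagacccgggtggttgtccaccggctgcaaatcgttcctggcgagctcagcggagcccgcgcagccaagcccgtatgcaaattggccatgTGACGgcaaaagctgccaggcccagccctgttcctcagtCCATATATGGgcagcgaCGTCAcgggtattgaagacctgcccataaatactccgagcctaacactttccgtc
Zfp36, chr7:28379229-28379478, minus strand: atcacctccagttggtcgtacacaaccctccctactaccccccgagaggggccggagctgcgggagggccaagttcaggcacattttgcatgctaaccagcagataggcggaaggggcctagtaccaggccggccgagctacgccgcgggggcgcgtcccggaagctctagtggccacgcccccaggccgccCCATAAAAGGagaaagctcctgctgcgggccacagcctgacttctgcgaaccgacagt
Nr4a1, chr15:101266596-101266845, plus strand: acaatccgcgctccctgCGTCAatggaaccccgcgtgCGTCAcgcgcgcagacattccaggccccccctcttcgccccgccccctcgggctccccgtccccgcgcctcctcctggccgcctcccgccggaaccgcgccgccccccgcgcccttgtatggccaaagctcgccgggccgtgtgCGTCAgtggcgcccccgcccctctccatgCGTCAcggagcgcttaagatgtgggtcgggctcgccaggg
Srf, chr17:46556163-46556412, minus strand: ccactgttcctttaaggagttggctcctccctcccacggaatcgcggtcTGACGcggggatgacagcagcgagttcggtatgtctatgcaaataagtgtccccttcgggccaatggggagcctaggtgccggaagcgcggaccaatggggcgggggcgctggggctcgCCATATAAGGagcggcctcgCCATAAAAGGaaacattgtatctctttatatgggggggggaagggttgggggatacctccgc
Ier5, chr1:155099637-155099886, minus strand: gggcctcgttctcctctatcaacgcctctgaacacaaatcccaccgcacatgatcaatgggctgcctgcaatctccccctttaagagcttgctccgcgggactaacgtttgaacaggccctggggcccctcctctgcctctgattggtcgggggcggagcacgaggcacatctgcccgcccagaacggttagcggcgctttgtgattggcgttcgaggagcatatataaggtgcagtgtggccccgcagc

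The Srf window held 2 CArG boxes, starting 82 and 62 bases before the start, and those of Zfp36 and Egr2 held 1 each, at 58 and 72 bases. Egr2 has 5 RefSeq windows, of which 4 held a CArG box, in 3 of them the same one. Of all 32851 promoter windows of this length 1.47% held a CArG box. Nr4a1 held 4 matches to TGACG, Egr2 held 2 and Srf 1, against 17.8% of windows with any, and no CArG box was found in the Nr4a1 window. GCGNGGGCG, the letters bound by EGR proteins (both strands searched, with no overlap with the capitals), occurred once each in Nr4a1, Srf and Zfp36 and in 4.7% of all windows. The Ier5 window and that of Ier3 held none of these 3 motifs. A match is a run of letters only, and matches occurred both in genes that rose and in Srf, which did not pass. Ier3, whose sequence is not shown, rose without any of these motifs, and Ier5, which also held none, fell.

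**Figure D1:**
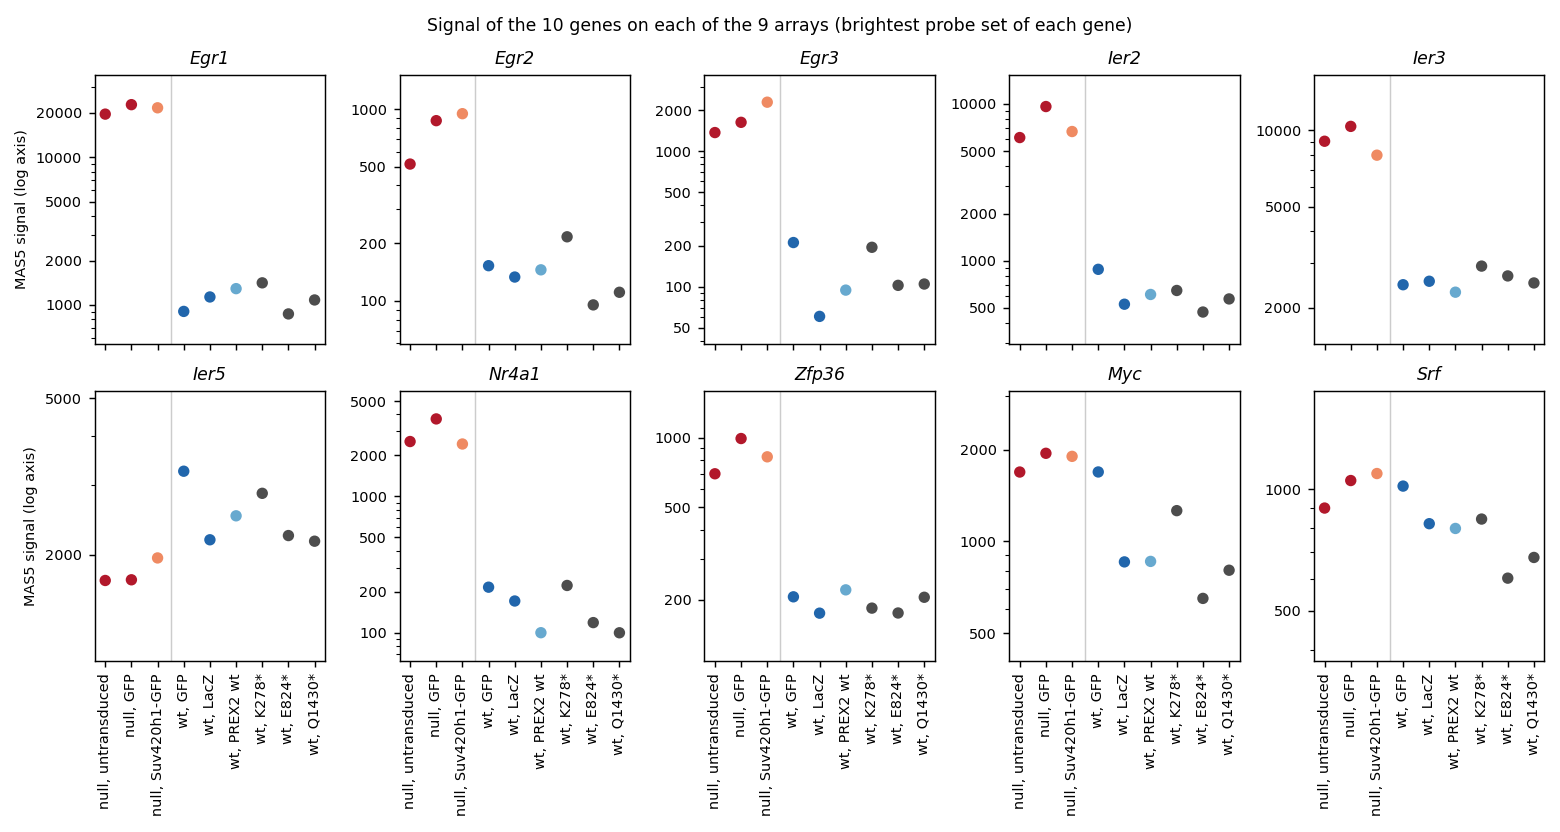
MAS5 signal (log axis, scale differs between panels) of the brightest probe set of each of the 10 genes on the 9 arrays; red and orange points are the null-derived line, blue the control vectors and full-length PREX2, grey the truncated PREX2. For 8 genes the 3 null-derived arrays lie apart from the 6 wild-type-line arrays, above them for 7 and below them for Ier5, whereas Myc and Srf overlap. Of all tested probe sets 21.4% lay above in this way and 19.1% below.

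The comparison of all null-derived arrays with all wild-type-line arrays asks which of these genes differ between the lines whatever the construct. Levels are MAS5 signals, an array's brightness in arbitrary units, and differences are on the scale log2(signal + 25) from limma, adjusted over 19090 tested probe sets by the Benjamini-Hochberg method. Between these lines 43.4% of tested probe sets passed (22.1% higher and 21.3% lower), so a call alone sets no gene apart. Of the 10 genes 8 rose and 1 fell, and their median log2 difference was 2.11, against 0.0042 over all tested probe sets. On every array 7 genes lay above the wild-type line, as 21.4% of tested probe sets did, and 1 gene lay below it, as 19.1% did. In bulk RNA, more cells with a transcript and more of it per cell cannot be told apart.

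Egr1 encodes a zinc-finger transcription factor that is among the first genes induced by serum. Its probe set 1417065_at read 19640 in untransduced null cells, 22767 with GFP and 21678 with Suv420h1-GFP. The 6 wild-type-line arrays ran from 869 to 1412, with a median of 1107. No wild-type-line array came near the null-derived arrays, and the null-derived arrays lay within 1.16-fold of each other. The log2 difference was 4.25 (SE 0.147, 3 against 6 arrays, limma adjusted p = 1.13e-08).

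Egr3 and Egr2 encode related zinc-finger factors that act in muscle spindles, lymphocytes and myelinating cells. Egr3 (1436329_at) read 1374, 1636 and 2304 on the untransduced, GFP and Suv420h1-GFP null arrays, against 60.4 to 212 in the wild-type line (median 104). The reconstituted array was the highest, and the groups did not overlap. The log2 difference was 3.61 (SE 0.306, limma adjusted p = 6.99e-06), a size that depends on the offset, with 3.83 at an offset of 5 and 3.05 at 100. Egr2 (1427683_at) read 517, 871 and 947 on the same null-derived arrays and 95.4 to 216 in the wild-type line (median 139). Its difference was 2.25 (SE 0.234, limma adjusted p = 2.89e-05). The lowest null-derived array, the untransduced one, was still more than the highest wild-type-line array, K278*.

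The second Egr2 probe set, 1427682_a_at, read 315 to 701 in the null-derived line and 7.07 to 192 in the wild-type line, and rose by 2.499 (SE 0.482, limma adjusted p = 0.00176). It is the only one of the 13 tested probe sets whose wild-type-line mean (79.8) lay under the minimum mean of 100, so it was tested because of its level in the null-derived line. The second Egr3 probe set, 1421486_at, was dim, at 51.0 to 112 on all 9 arrays, and was not tested; it read 65.2 to 75.4 in the null-derived line. The brighter and the dim Egr3 probe sets therefore do not show the same pattern.

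Ier2 encodes a nuclear protein induced early by growth factors. Its probe set 1416442_at read 6105, 9626 and 6670 on the untransduced, GFP and Suv420h1-GFP null arrays. The wild-type line ran from 471 to 882 with a median of 590, and its highest value was on the GFP array. The log2 difference was 3.54 (SE 0.191, limma adjusted p = 2.75e-07).

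Nr4a1 encodes an orphan nuclear receptor induced by growth factors and calcium. It (1416505_at) read 2527, 3703 and 2424 on the null-derived arrays in the same order, against 99.9 to 222 in the wild-type line (median 145). The groups lay far apart, and the log2 difference was 4.05 (SE 0.254, limma adjusted p = 7.59e-07), next in size to that of Egr1 among the 10.

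Ier3 encodes a stress-inducible regulator of apoptosis and ERK signalling. It (1419647_a_at) read 9057, 10362 and 7982 in the null-derived line and 2306 to 2921 in the wild-type line (median 2526). Both groups were tight, and the difference was 1.82 (SE 0.0983, limma adjusted p = 2.82e-07). Zfp36 (1452519_a_at), the mRNA-decay factor, read 698, 990 and 826 against 175 to 221 (median 195), a difference of 1.96 (SE 0.126, limma adjusted p = 8.92e-07). Of the 6 wild-type-line arrays the one with PREX2 wt was highest for Zfp36, which made it the only one of the 10 genes whose highest wild-type-line array was neither GFP nor K278*.

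Myc encodes a transcription factor that drives growth and ribosome production. It (1424942_a_at) read 1688, 1945 and 1900 in the null-derived line. In the wild-type line it read 1689 with GFP, 1261 with K278*, 859 with PREX2 wt, 856 with LacZ, 804 with Q1430* and 650 with E824*. The GFP array thus reached the level of untransduced null cells, and the groups overlapped. The difference between the lines was 0.91 (SE 0.248, limma adjusted p = 0.0125) and the call ended without the null GFP array (0.87, adjusted p = 0.05005). It was 1.07 without the wild-type GFP array, the one that overlapped.

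Srf encodes the factor that binds CArG boxes and is itself an early target of serum. The brighter probe set, 1418255_s_at, read 898, 1050 and 1093 in the null-derived line and 602 to 1017 in the wild-type line (median 810), with overlap at the GFP array. The difference of 0.36 (SE 0.149, limma adjusted p = 0.0748) did not pass. It passed without the wild-type GFP array (0.43, adjusted p = 0.0130). The other probe set, 1418256_at, read 192 to 272 and 124 to 243, a difference of 0.31 (SE 0.189, adjusted p = 0.204).

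Ier5 encodes a nuclear protein that takes part in the heat-shock response, and it alone among the 10 was lower in the null-derived line. Its brightest probe set, 1417612_at, read 1718, 1724 and 1960 against 2162 to 3260 in the wild-type line (median 2373), without overlap. It was at -0.47 (SE 0.136, limma adjusted p = 0.0162), a call that ended without the untransduced null array (-0.44, adjusted p = 0.0647) or the null GFP array (-0.44, adjusted p = 0.0636). A dimmer probe set, 1460009_at, separated the lines more widely, with 165 to 178 against 360 to 483, and was at -1.13 (SE 0.114, adjusted p = 2.33e-05). The remaining one, 1417613_at, read 7.88 to 80.5 over the 9 arrays and was not tested.

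The order of all 5 group means differed between genes, and only the split between the lines repeated. For Egr1, Egr2, Egr3, Ier2, Ier3, Nr4a1 and Zfp36 the null line and the reconstituted array held the highest places, and the step down to the next group was 4.41 to 14.9 times the within-group SD on the log2 scale. Within the null-derived line the step was under 1.1 SD for these genes except Ier3, where the null line stood 2.66 SD (0.28 on the log2 scale) above the reconstituted array. Among the 3 wild-type-line groups no step exceeded 1.14 SD. For Myc, Srf and Ier5 no neighbouring groups were more than 1.201 SD apart.

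The comparison of the null line with control vector leaves PREX2 constructs out of the contrast, although their arrays enter the estimate of spread. It cannot tell the loss of Suv420h1 from line and history. It also sets an untransduced and a GFP array against control arrays that both carried a lentivirus. It shares its arrays with the previous comparison and is no independent evidence. In it 7 of the 10 genes rose and 0 fell, while 19.7% of tested probe sets passed (10.7% higher and 8.94% lower), and 8 of the 10 had an unadjusted p under 0.05 in limma. Egr1 rose by 4.35 (SE 0.229, 2 against 2 arrays), Nr4a1 by 3.83, Ier2 by 3.44, Egr3 by 3.42, Egr2 by 2.06, Zfp36 by 1.99 and Ier3 by 1.94, with limma adjusted p between 6.18e-05 and 0.00953. The call of Egr2 ended without the null GFP array (1.69, adjusted p = 0.0817). Ier5 (-0.62, adjusted p = 0.0846), Myc (0.58, adjusted p = 0.315) and Srf (0.08, adjusted p = 0.7997) did not pass. Ier5 passed at its dimmer probe set (-1.21, SE 0.188, adjusted p = 0.00561), and at the brighter one without LacZ (-0.91, adjusted p = 0.0164) or without both GFP and K278* (-0.34, adjusted p = 0.0320). Myc was at 0.10 without LacZ (adjusted p = 0.858) and 1.06 without the wild-type GFP array (adjusted p = 0.0808), and it passed without both GFP and K278* (1.06, adjusted p = 0.000644).

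With GFP in both lines, a match of 1 array with 1, the null array exceeded the wild-type array by 4.62 for Egr1, 3.95 for Nr4a1, 3.41 for Ier2, 2.81 for Egr3, 2.33 for Egr2, 2.13 for Zfp36 and 2.06 for Ier3 on the log2 scale. These 7 differed more than 2-fold, against 9.59% of tested probe sets that were more than 2-fold higher. Myc differed by 0.20 and Srf by 0.04, and Ier5 by -0.91. These differences have no replicate check.

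**Figure D2:**
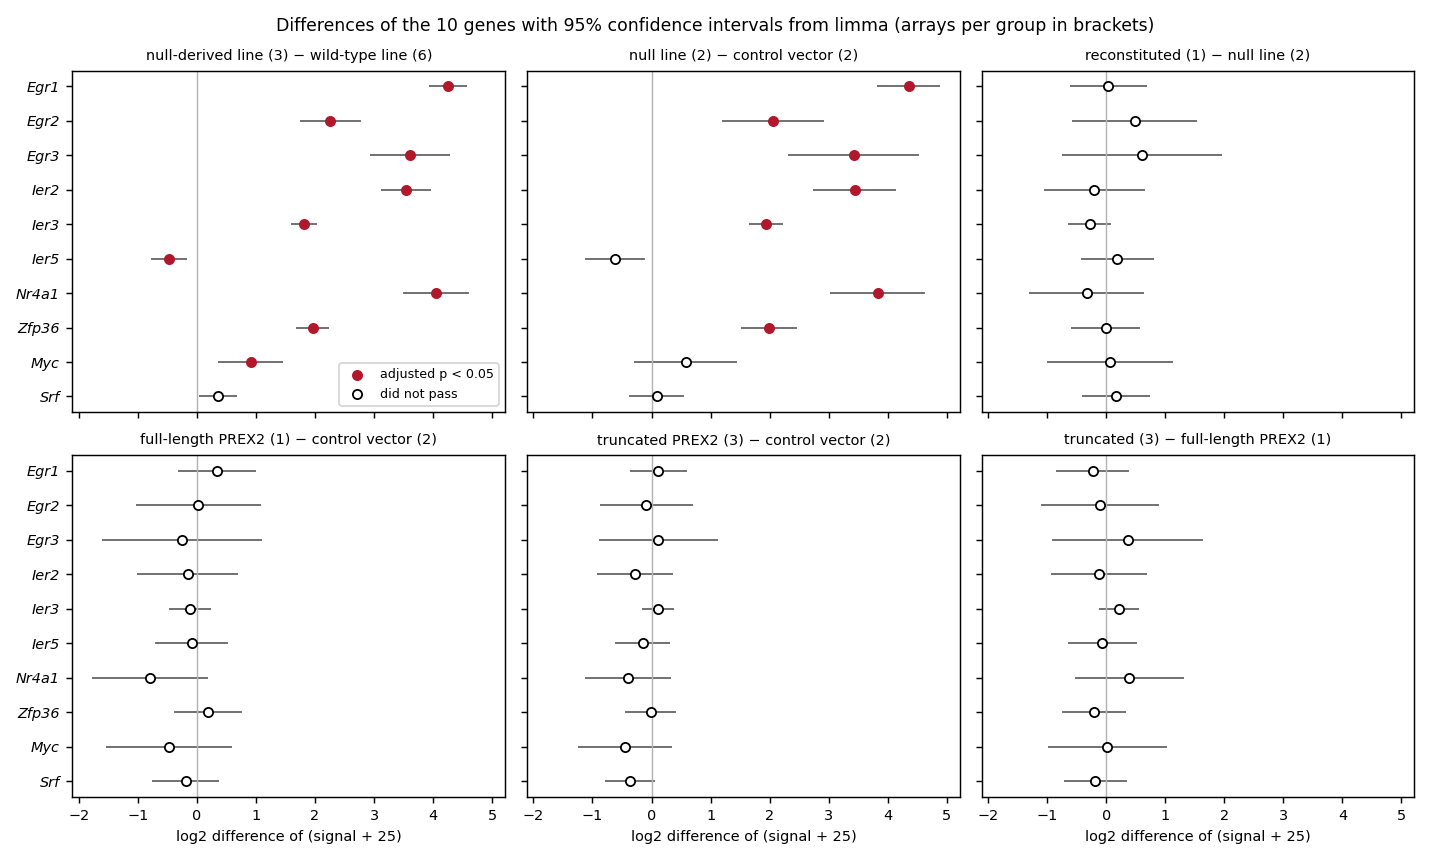
Difference of log2(signal + 25) for the 10 genes (brightest probe set) in 6 comparisons, with 95% confidence intervals from limma and the number of arrays per group in brackets; filled points passed at an adjusted p of 0.05. Filled points occur in the 2 comparisons between lines only (9 and 7 genes), where 43.4% and 19.7% of all tested probe sets passed. No gene passed in the other 4, where at most 1 of 19090 probe sets did.

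The comparison of reconstituted with null cells asks whether returning Suv420h1 changed these genes. In limma 0 of 10 passed, and 0 of 10 had an unadjusted p under 0.05; of all tested probe sets 0% passed, and 621 (3.25%) had an unadjusted p under 0.05. Of the differences 6 were positive and 4 negative. Egr1 differed by 0.04 (95% confidence interval -0.62 to 0.69, 1 against 2 arrays), Nr4a1 by -0.33 (-1.31 to 0.65), Ier2 by -0.20 (-1.06 to 0.66) and Zfp36 by -0.01 (-0.59 to 0.57). The largest was Egr3 at 0.61 (-0.75 to 1.97), followed by Egr2 at 0.48 (-0.58 to 1.53). For the 7 genes that rose in the null line against control vector, the lower bound was a smaller decrease than that rise. The interval rests on 1 reconstituted array with spread borrowed from other groups, and both comparisons use the same null arrays. Whether the fusion brings these genes toward the level of the wild-type line was therefore not tested. For 6 of the 10 genes the null GFP array was the highest of the 3 null-derived arrays and for the other 4 the reconstituted array was, so the untransduced array was the highest for 0.

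The comparisons of PREX2 constructs ask whether overexpression or truncation changed these genes in wild-type cells. Full-length and truncated PREX2 were set against the same 2 control arrays. For full-length PREX2 0 of 10 genes passed in limma, with 0 at an unadjusted p under 0.05; of all tested probe sets 0% passed and 269 (1.41%) had an unadjusted p under 0.05. The largest difference was Nr4a1, at 100.03 against 216 and 171 with GFP and LacZ (-0.80, 95% confidence interval -1.77 to 0.18, 1 against 2 arrays), below both controls. Myc read 859 against 1689 and 856 (-0.47, -1.54 to 0.59), at the level of LacZ.

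For truncated PREX2 0 of 10 genes passed in limma, with 0 at an unadjusted p under 0.05, while 0.00524% of tested probe sets passed (1 of 19090) and 539 (2.82%) had an unadjusted p under 0.05. Myc was at -0.46 (-1.25 to 0.34, 3 against 2 arrays), Nr4a1 at -0.40 (-1.13 to 0.33), Srf at -0.37 (-0.80 to 0.05) and Egr1 at 0.12 (-0.37 to 0.60), all with overlapping groups. The difference of Myc was 0.02 without the wild-type GFP array. Between truncated and full-length PREX2 0 of 10 passed in limma (0 at an unadjusted p under 0.05; 0% of tested probe sets passed, and 241, or 1.26%, had an unadjusted p under 0.05). The largest difference was Nr4a1, at 0.39 (-0.54 to 1.32, 3 against 1 array).

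**Figure D3:**
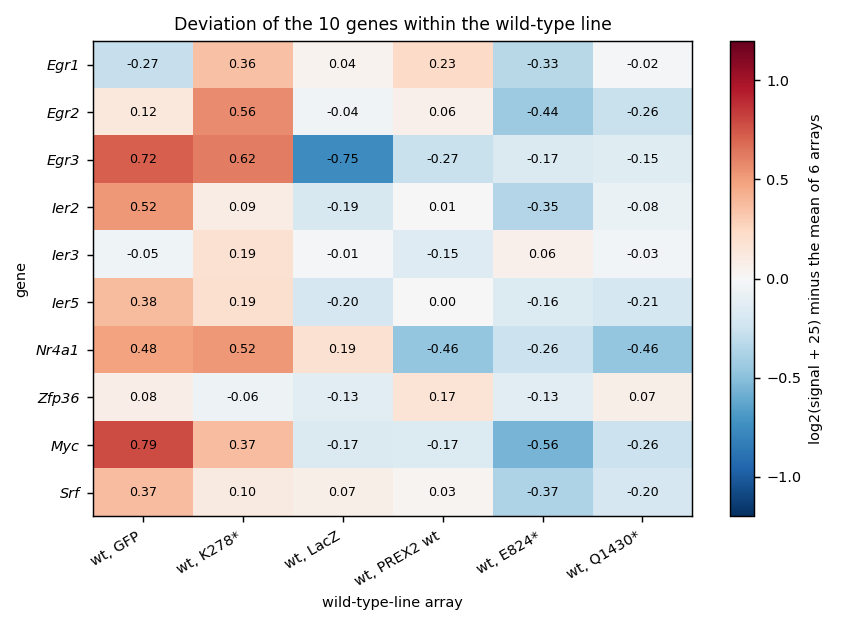
Deviation of log2(signal + 25) of each of the 10 genes from its own mean over the 6 wild-type-line arrays; red cells are above and blue cells below that mean. The GFP and K278* columns hold the 2 highest values for 7 genes, with Myc at 0.79 and 0.37 and Egr3 at 0.72 and 0.62.

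Within the wild-type line the arrays fell in an order that did not follow the groups. GFP and K278* were the 2 highest of the 6 arrays for 7 of the 10 genes (Egr2, Egr3, Ier2, Ier5, Nr4a1, Myc and Srf), against 22.2% of tested probe sets. This pattern was picked after the values were seen and was given no test. GFP exceeded LacZ, the other control, by 1.47 on the log2 scale for Egr3, 0.96 for Myc, 0.71 for Ier2 and 0.57 for Ier5, but lay below it for Egr1 (-0.32) and Ier3 (-0.05). More than 2-fold higher on GFP was 1 of the 10 genes, against 1.72% of tested probe sets. K278* exceeded LacZ by 1.37 for Egr3, again the 1 gene of 10 more than 2-fold higher, against 0.456% of tested probe sets. It exceeded the mean of E824* and Q1430*, the longer truncations, by 0.91 for Egr2, 0.88 for Nr4a1, 0.78 for Myc and Egr3 and 0.53 for Egr1, with 1 array against 2 and no test. Zfp36 was at -0.04.

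Other measures differed on the same arrays. The Actb 3′/5′ signal ratio, a measure of RNA or labelling quality, was 1.21 on GFP and 1.18 on K278*, 1.31 to 1.36 with LacZ, PREX2 wt, E824* and Q1430* and 1.15 to 1.21 in the null-derived line. That of Gapdh was 0.815 and 0.901, against 0.862 to 0.922 on the other 4 and 0.850 to 0.863 in the null-derived line. The summed signal of 12 fibroblast markers was 155712 and 157703 on GFP and K278*, 199628 to 211528 on the other 4 and 147862 to 156213 in the null-derived line. The median signal of an array was 67.9 to 68.9 in the null-derived line and 56.4 to 62.3 in the wild-type line, where 43.4% to 43.9% and 40.6% to 42.2% of probe sets read at least 100. Their part in the differences of Egr, Ier and other genes was not tested. The null and wild-type GFP arrays both had an Actb ratio of 1.21. Their summed fibroblast-marker signals were also close, at 156213 and 155712. Their Gapdh ratios were 0.850 and 0.815 and their median signals 67.9 and 56.4, so they do not match on every measure. Between these arrays Egr1 differed by 4.62 and Ier3 by 2.06, the largest and smallest of the 7 genes more than 2-fold higher there. This pair is no test of array quality.

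Among 39 tested of 44 other immediate-early genes, 24 rose and 3 fell between the lines, beside 22.1% higher and 21.3% lower among all tested probe sets, with a median of 0.97 against 0.0042. With 1 array left out 20 to 29 rose, while 6466 to 9646 of all probe sets passed in either direction, against 8285 with every array. Without both GFP and K278* 30 rose and 5 fell, with the share over all probe sets for that setting not given here. Fos, the AP-1 subunit, read 9109, 13906 and 9046 on the untransduced, GFP and Suv420h1-GFP null arrays and 160 to 373 in the wild-type line (5.27, SE 0.219, limma adjusted p = 4.33e-08). The matricellular protein Ccn1 (Cyr61) rose by 3.46 (SE 0.180) and the antiproliferative gene Btg2 by 3.13 (SE 0.203). Jun, the AP-1 partner of FOS, read 2502 and 2479 on average in the null-derived and wild-type lines (0.05, limma adjusted p = 0.879), and differed by 0.29 without both GFP and K278* (adjusted p = 0.0366). The genes that fell, Cebpb (-1.04), Socs3 (-0.58) and Klf10 (-0.47), were named after their values were seen, as was Jun. Without the untransduced null array neither Socs3 nor Klf10 passed. Within the wild-type line GFP and K278* were the 2 highest arrays for 20 of these 39 genes, against 22.2% of tested probe sets.

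**Figure D4:**
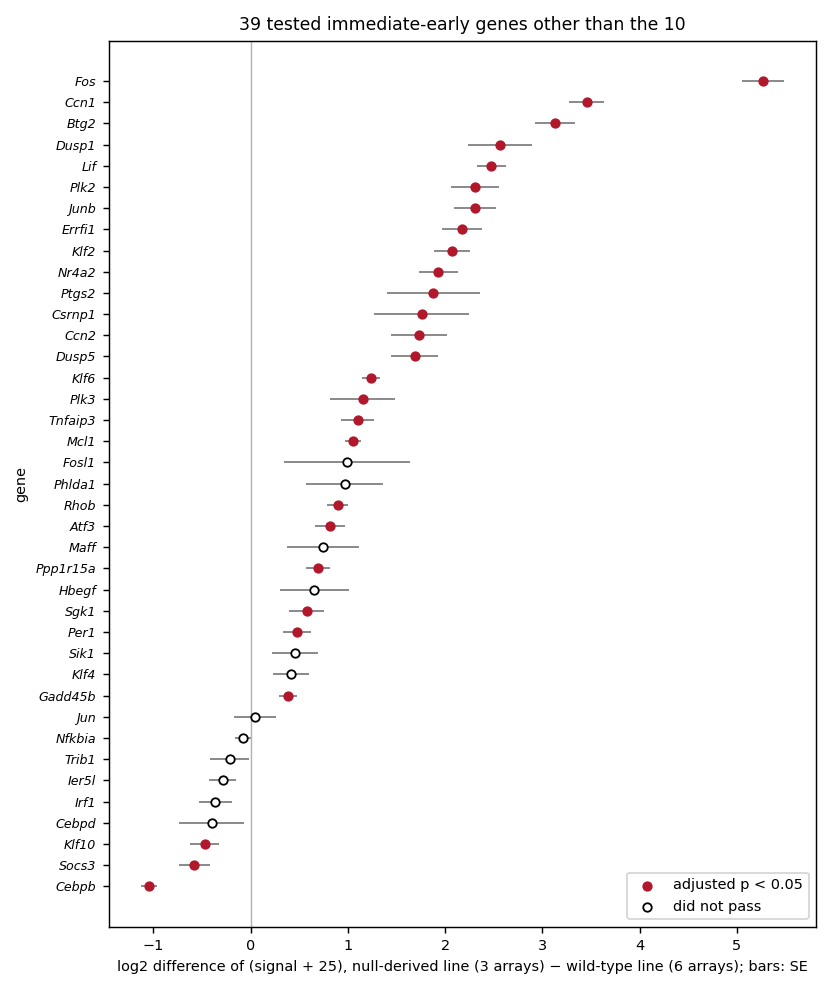
Difference of log2(signal + 25) between the null-derived line (3 arrays) and the wild-type line (6 arrays) for 39 tested immediate-early genes outside the 10, with the SE as bars; filled points passed at an adjusted p of 0.05. Fos stands at 5.27, 24 genes rose and 3 fell, beside 22.1% higher and 21.3% lower among all tested probe sets.

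Of 8 tested close relatives of the 10 genes, 5 rose and 0 fell (median 0.44), beside the same 22.1% and 21.3%. Nr4a2, the relative of Nr4a1 and also among the 39 genes above, rose by 1.93 (SE 0.200) and Zfp36l1, the relative of Zfp36, by 0.94. Mycn, the relative of Myc, varied within the null-derived line, from 146 in untransduced cells to 1031 with Suv420h1-GFP and 5232 with GFP, against 85.7 to 140 in the wild-type line. Its difference of 2.76 (SE 0.765, limma adjusted p = 0.0136) comes from the 2 transduced null arrays, since the untransduced one lay just above the wild-type line. Egr4, Nr4a3 and Mycl stayed under a signal of 100 on all arrays.

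Counts of upstream genes and partners are to be read beside the 43.4% of all tested probe sets that passed between the lines. Of the Ras-ERK cascade 11 of 18 listed genes were analysed here; 2 rose and 3 fell (median 0.10), with 0 to 4 rising when arrays were left out. The scaffold Ksr1 was at -1.06 and the kinase Araf at -0.66. Of 14 tested growth factor ligands and receptors 5 rose and 3 fell (median 0.11). The receptor Egfr read 1355, 1359 and 1530 in the null-derived line and 286 to 474 in the wild-type line (1.86, SE 0.143, limma adjusted p = 3.45e-06). Its ligand Ereg rose by 1.84 (SE 0.471), and the ligand Pdgfc was at -2.08. Ereg read 503 on the wild-type GFP array, against 521 on the null GFP array. It did not pass in the null line against control vector (1.22, limma adjusted p = 0.271). Of 14 tested partners of EGR, MYC and SRF 2 rose and 3 fell (median 0.06), 1 or 2 rising when arrays were left out, with the MYC antagonists Mxi1 at -0.71 and Mxd3 at -0.63 and the SRF cofactor Mrtfb at 0.40.

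Downstream, all 5 tested genes known as EGR1 targets rose (median 0.80), beside 22.1% of all tested probe sets, although Nab2 is also counted among the partners and Pdgfa among the ligands. Tissue factor, F3, rose by 1.33 (SE 0.0736) and thrombospondin 1, Thbs1, by 1.24; without the untransduced null array 3 of the 5 rose. Pdgfb, Tgfb1, Fgf2 and Icam1, also listed, were under 100 on every array. Of 19 tested MYC targets 2 rose and 3 fell (median -0.11), led by the cyclin Ccnd2 at 1.39. Among all tested probe sets 22.1% were higher and 21.3% lower, shares that also apply to the contractile and ZFP36 lists below. Without both GFP and K278* 6 MYC targets rose, with the share over all probe sets for that setting not given here. In the wild-type line GFP and K278* were the 2 highest for 15 of these 19, against 22.2% of tested probe sets. The summed signals of these targets were 147562 and 126208 there, against 103564 to 118576 on the other 4 arrays. Of 14 contractile genes known as SRF targets 2 rose and 4 fell (median -0.06). The smooth-muscle genes Cnn1 and Actg2 were at -2.96 and -2.25, while the focal-adhesion gene Zyx rose by 1.33. Of 7 tested mRNAs known to bind ZFP36 3 rose and 1 fell (median 0.59), with the cytokine Lif at 2.48, Ptgs2, the cyclooxygenase, at 1.88 and the cytokine Il6 at -0.91 (limma adjusted p = 0.0328). Lif read 53.5 to 94.0 in the wild-type line, so it was tested because of its level in the null-derived line (451 to 518). Lif and Ptgs2 are also among the 39 immediate-early genes. Il6 did not pass without the reconstituted array (-0.66, adjusted p = 0.159), nor without the null GFP, LacZ or full-length PREX2 array.

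Of markers of other cell types, 2 of 4 macrophage, 1 of 2 epithelial, 2 of 2 neural and 1 of 2 endothelial genes tested fell and 1 endothelial gene rose between the lines, beside 21.3% lower and 22.1% higher among all tested probe sets. Of those that fell, Tubb3, Krt19 and Tek averaged 26.7, 62.7 and 62.1 in the null-derived line. They were tested because of their level in the wild-type line, so these counts are shaped by the filter. The summed macrophage signal was 1190 to 1635 in the null-derived line and 1334 to 2229 in the wild-type line, the epithelial 471 to 559 and 584 to 641, the neural 157 to 351 and 967 to 2164, and the endothelial 763 to 878 and 385 to 724. The listed markers Ptprc, Adgre1, Pecam1, Cdh5, Cdh1, Krt18, Rbfox3, Nefl and Gfap were under 100 on all 9 arrays. The other listed markers reached 100 on some array, among them Lyz2 (184 to 993), Csf1r (198 to 544), Epcam (162 to 432) and Map2 (65.5 to 1837). Of the 12 fibroblast markers 0 rose and 4 fell, and 2 to 11 fell when arrays were left out, led by Thy1 at -6.11.

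The genes whose pattern over the 9 arrays was nearest to that of Egr1, by the root mean square difference of log2(signal + 25) centred on each gene's mean, were Ripor2 (0.244), Hspb1 (0.246), Robo1 (0.246), Rlf (0.246) and Hoxa10 (0.259), of 10177 genes. In the wild-type line Rlf (0.821 to 19.4), Robo1 (17.2 to 26.3) and Hoxa10 (12.6 to 26.3) lay about at or under the offset of 25 and Ripor2 (26.7 to 38.3) just above it. These 4 passed the filter through the null-derived line, and the offset sets their spread and nearness. Among the other 9 genes described the nearest was Nr4a1, at 0.411. The nearest to Myc were Hmgn5 (0.116), Slc19a2 (0.120), Ckap2 (0.128), Tmed5 (0.130) and Slc20a1 (0.140), and each of these was high in the null-derived line and on GFP and K278*. The arrays share a line and a scaling, so nearness describes these 9 arrays.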

How the data were processed

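Biotin-labelled cRNA made from the RNA of 9 samples was hybridised to Affymetrix arrays, per the labels' protocols. What the authors deposited is probe-set intensity, linear MAS5 signal per the submitters' processing notes, with software version and target not given in the sources used here. Each array had a 2%-trimmed mean of 500. The number of arrays limits precision. Of 45101 probe sets 64 controls were left out; 34945 carried 1 symbol, 932 several and 9160 none.

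Probe sets with a mean of at least 100 (19090, of 10177 genes, and 13 of the 15 described) entered limma 3.58.1 (R 4.3.3) on log2(signal + 25) with an intensity trend: 1 fit held a mean for each of 5 groups (residual degrees of freedom 4) and 1 a mean for each of 2 lines (7). P-values are two-sided and adjusted by Benjamini-Hochberg over all tested probe sets, at 0.05. Groups of 1 array borrow the spread of the others. Log2 differences understate changes of dim probe sets. The brightest tested probe set stands for a gene; other probe sets are given singly. The genes and lists were chosen with earlier results of these data known, and the promoter motifs after the promoters were read. All 10 genes were named, and from each list up to 3 passing genes with the largest differences, plus the 5 nearest patterns to Egr1 and to Myc. Heat-shock genes and markers of other cell types were listed too. The fits were tested on simulated data. Alternatives were offsets of 5 and 100, a minimum mean of 200 or none, quantile normalization, a fit with no trend, the compared groups alone, the mean of a gene's probe sets, each array left out and both GFP (wild-type) and K278* left out together, which was chosen after seeing the data. Promoters came from RefSeq tables of GRCm38.p6 and were searched with Python 3.11.15.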

Additional observations from a re-analysis of the deposited data

How the results depend on the processing

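The number of the 10 genes that passed stayed within 1.5 times under every alternative run: 6 to 9 in the null line against control vector (7 as reported), 7 to 10 between the lines (9), and 0 in the other 4 comparisons. Over the single genes, 709 alternative values kept their direction and their side of the threshold, 4 calls were lost and 6 gained, and 31 small differences that passed nowhere changed sign. Counts over all probe sets moved more. For the null line against control vector, 3753 became 1834 with the compared groups alone, 7054 without both GFP and K278*, and 1011 to 4522 with 1 array left out, the lowest without the null GFP array and 1226 without the untransduced one. For reconstitution, 0 became 1 after quantile normalization and 233 with the compared groups alone, a fit with 3 arrays; the cause was not tested. For truncated PREX2, 1 became 0 with an offset of 100, no filter or the compared groups alone, 3 without both arrays, and 0 to 117 with 1 array left out; the highest came without LacZ. For full-length PREX2, 0 became 0 to 3, the highest also without LacZ. No paired analysis was possible because the labels carry no replicate numbers. Signals under the offset of 25 have little precision; of the described probe sets this touches 1427682_a_at and 1417613_at.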

Other observations

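Heat-shock genes, which encode chaperones, moved in both directions between the lines. Of 8 tested 3 rose and 2 fell, beside 22.1% higher and 21.3% lower among all tested probe sets (median -0.02, against 0.0042). Hspb1 read 7645, 9474 and 5931 on the untransduced, GFP and Suv420h1-GFP null arrays and 319 to 458 in the wild-type line, and rose by 4.23 (SE 0.147, limma adjusted p = 1.13e-08). Dnajb1 rose by 1.46 (SE 0.125), whereas the inducible chaperone Hspa1a was at -1.81 (SE 0.202), with 65.9 to 112 in the null-derived line and 299 to 582 in the wild-type line.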
